A study of Mus musculus with 18 samples.

Results

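Small nucleolar RNA (snoRNA) genes were followed through deletion of Cebpa and early hyperoxia in mouse alveolar type II cells. All genes whose only symbol on the array was Snord or Snora followed by a digit were taken, which gave 51 of the 19938 genes measured. Of these, 31 were box C/D genes (Snord) and 20 were box H/ACA genes (Snora). The 51 genes lay on 56 array features. Another 41 features that list a snoRNA beside a second symbol were left out. Each value is a log2 expression level from a microarray, so a difference of 1 is a 2-fold change, and levels of different genes were not set against each other.

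SnoRNAs are short noncoding RNAs that work in the nucleolus. Box C/D snoRNAs pair with ribosomal RNA and direct the methyltransferase fibrillarin to add methyl groups to ribose, and box H/ACA snoRNAs direct the enzyme dyskerin to turn uridine into pseudouridine. A few members of both families act in cutting ribosomal RNA out of its precursor. In mammals most snoRNAs have no promoter of their own: they are cut out of the introns of a host gene, often one that encodes a ribosomal protein or translation factor, and are protected from exonucleases by their core proteins.

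The RNA came from type II cells, the lung epithelial cells that make surfactant, isolated from mice aged 7 to 8 wk, with 3 arrays in each of 6 groups. Control cells came from littermates with floxed Cebpa, labelled CEBP/a(flx/flx), which had no rtTA or no Cre transgene. Cebpa-deleted cells came from mice labelled CCSP/rtTA/CEBPa(flx/flx), a genotype label that names no Cre. CCSP stands for the Clara cell secretory protein, whose promoter drives rtTA, and the series design states that Cebpa was lost in Clara cells from early gestation on and in type II cells around the end of gestation. Both genotypes were sampled at 0, 2 and 24 h of hyperoxia, a high concentration of inspired oxygen. The times stand in the sample titles and hyperoxia in the series design, whereas the description of every sample states air. The labels do not say that the arrays of a group came from separate animals, and each p-value then reflects only how far these samples scatter, which may be technical.

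The snoRNA genes were spread over many hosts. In the RefSeq annotation 50 of the 51 genes lay inside the span of another gene, and Snord118 did not. The 50 genes had 40 hosts. Of the 50, 37 lay in protein-coding genes and 13 in noncoding RNA genes, and 21 lay in ribosomal protein genes. The annotated lengths of the box C/D genes ran from 45 to 148 bases with a median of 68, and those of the box H/ACA genes from 61 to 205 with a median of 125. The host, not the snoRNA, carries the promoter, so the sequence around the annotated start of transcription of some hosts is shown first. Many genes of the translation machinery start with a C followed by an unbroken run of pyrimidines (C or T). Of the 30 hosts in the RefSeq promoter table (GRCm38.p6), 6 (20%) had such a run of at least 5 bases at an annotated first base, against 3.01% of the 27025 genes in that table. Those 6 hosts are printed below from 30 bases before the start to 15 bases from it, and the capitals mark the run. Eef2, host of Snord37, and Ncl, host of Snord82 and Snora75, are added because these snoRNAs return in the results and both lacked the run. A match describes these letters, and no match says only that the run is not at that base.
1110038B12Rik (host of Snord52), chr17:34952454-34952498, minus strand: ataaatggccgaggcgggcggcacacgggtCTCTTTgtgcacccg
Gas5 (host of Snord47), chr1:161035136-161035180, plus strand: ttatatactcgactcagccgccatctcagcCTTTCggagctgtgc
Gm36220 (host of Snord104), chr11:106500885-106500929, plus strand: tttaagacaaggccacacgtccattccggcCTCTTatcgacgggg
Ipo7 (host of Snora23), chr7:110018285-110018329, plus strand: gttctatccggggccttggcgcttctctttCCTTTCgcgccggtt
Rack1 (host of Snord95 and Snord96a), chr11:48800330-48800374, plus strand: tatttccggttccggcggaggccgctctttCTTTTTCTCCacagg
Rplp2 (host of Snora52), chr7:141447621-141447665, plus strand: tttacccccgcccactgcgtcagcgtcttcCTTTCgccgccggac
Eef2 (host of Snord37), chr10:81176601-81176645, plus strand: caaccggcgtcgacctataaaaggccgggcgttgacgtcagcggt
Ncl (host of Snord82 and Snora75), chr1:86359441-86359485, minus strand, where the single capital is a C with no pyrimidine after it: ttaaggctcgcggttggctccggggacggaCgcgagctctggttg

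Some facts of the whole set of arrays bear on every result below. The spread of an array, taken as the interquartile range over its genes, was 2.89 to 3.06 on the 6 arrays at 0 h, 2.13 to 2.55 at 2 h, 2.44 to 2.52 on control arrays at 24 h and 1.82 to 2.13 on deleted arrays at 24 h. The 2 narrowest arrays were replicates 1 and 2 of the deleted cells at 24 h. Median genotype differences at 24 h and some counts are also given without them, but values of single genes are not. Cebpa itself, the targeted gene, differed between deleted and control cells by -0.43 at 0 h (adjusted p = 0.429), -1.10 at 2 h (adjusted p = 0.00461) and -1.83 at 24 h (adjusted p = 8.19e-06) on the log2 scale, so it was not called at 0 h. Type II cell markers were high on every array, with Sftpc, which encodes surfactant protein C, at 13.68 to 14.62, but 8 of 9 such markers were lower in deleted cells at 24 h, against 26.4% of all genes. Of 8 endothelial markers, 6 were higher in deleted cells at 0 h, 8 at 2 h and 8 at 24 h, against 0.677%, 1.2% and 24.3% of all genes, and their mean level was 8.21 to 8.56 in control and 9.27 to 9.60 in deleted arrays at 0 h. At 24 h, 5 of 7 lymphocyte markers and 5 of 8 fibroblast and smooth muscle markers were also higher in deleted cells, against the same 24.3%. The smooth muscle markers Acta2 and Tagln went the other way without a call. Their means at 24 h were 8.58 and 7.01 in control and 7.85 and 6.59 in deleted cells. The part of these marker differences in the snoRNA results was not tested. In these bulk isolates fewer cells of a type and less RNA per cell cannot be told apart.

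Before hyperoxia, snoRNA levels lay on the low side in Cebpa-deleted cells. The mean of the 31 box C/D genes was 7.45, 7.52 and 7.69 on the control arrays and 7.29, 7.34 and 7.04 on the deleted arrays. The mean of the 20 box H/ACA genes was 7.30, 7.38 and 7.42 in controls and 7.16, 7.19 and 6.94 in deleted cells. In both classes all 3 deleted arrays lay below all 3 control arrays. Single genes showed the same direction: 43 of 51 had a negative difference, with a median of -0.33 for box C/D and -0.28 for box H/ACA against -0.00 for all genes. All deleted arrays lay below all control arrays for 16 of 31 box C/D and 9 of 20 box H/ACA genes, and this held for 8.77% of all genes. All lay above for 1 box C/D and no box H/ACA gene, against 8.49% of all genes. A gene was called when its limma p-value was below 0.05 after Benjamini-Hochberg adjustment over the whole array. By that rule 3 snoRNA genes fell and none rose, where 0.858% of all genes were called and 0.181% fell.

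**Figure D1:**
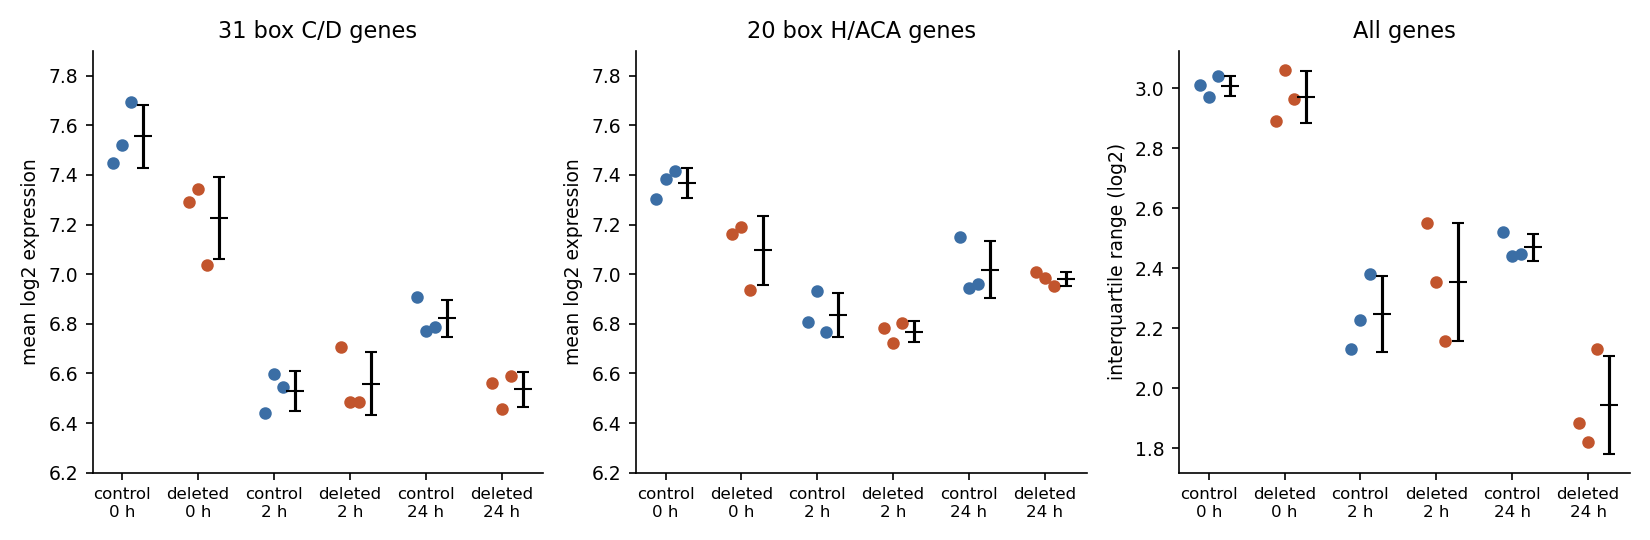
Mean log2 expression of the 31 box C/D genes (left) and the 20 box H/ACA genes (middle), and the interquartile range of all 19938 genes in log2 units (right), by array. Each dot is 1 array (blue control, orange Cebpa-deleted) and the black marks give the group mean with its SD (n = 3). Box C/D means lie at 7.45 to 7.69 on control arrays at 0 h and at 6.44 to 6.60 at 2 h, and the array range narrows at the same time.

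The 3 snoRNA genes called at 0 h were Snord82, Snord52 and Snora31. Snord82, from an intron of the nucleolin gene Ncl, read 7.64, 8.00 and 8.41 in control and 7.14, 7.03 and 6.89 in deleted cells. The groups did not overlap, and the difference of -0.99 ± 0.22 (SE) had an adjusted p of 0.0391. Snord52, from the noncoding gene 1110038B12Rik, read 7.79, 8.08 and 8.76 in control and 7.42, 7.19 and 7.19 in deleted cells. Every deleted array was again below the lowest control, with a difference of -0.94 ± 0.21 (SE; adjusted p = 0.0335). Snora31, from Tpt1, which encodes a translationally controlled tumor protein, read 7.84, 7.95 and 8.18 in control and 7.54, 7.63 and 7.27 in deleted cells. Its groups were apart as well, with a difference of -0.50 ± 0.12 (SE; adjusted p = 0.0441). These calls sat near the threshold: none of them was made without control replicate 2 or 3 or without deleted replicate 3 at 0 h, 8 snoRNA genes were called without deleted replicate 2 at 2 h, and the counts without control replicate 1 at 0 h, deleted replicate 2 at 0 h, control replicate 2 at 24 h and deleted replicate 4 at 24 h were 5, 1, 1 and 1. None was called after quantile normalization. The host Ncl differed by -0.11 (adjusted p = 0.875) and Tpt1 by -0.02 (adjusted p = 0.984) at 0 h.

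At 2 h the genotypes showed no snoRNA call in limma, while 1.4% of all genes were called, 1.2% higher and 0.206% lower. The median difference was 0.04 for box C/D and -0.04 for box H/ACA genes, and 6 of 51 genes had an unadjusted p below 0.05. All deleted arrays lay above all control arrays for 2 box C/D genes and below them for 2 box H/ACA genes, against 6.95% and 5.56% of all genes. The genes of smallest p above zero were Snord87 at 0.35 (adjusted p = 0.17), Snord96a at 0.29 (adjusted p = 0.403) and Snora75 at 0.30 (adjusted p = 0.497). Those of smallest p below zero were Snora16a at -0.61 (adjusted p = 0.179), Snord49b at -0.39 (adjusted p = 0.406) and Snora44 at -0.20 (adjusted p = 0.445). With deleted replicate 2 at 2 h left out, 1 gene was called.

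At 24 h of hyperoxia 13 of 31 box C/D genes were lower in Cebpa-deleted than in control cells, 1 was higher and 17 were not called. Of 20 box H/ACA genes 4 were lower, 3 were higher and 13 were not called. At the same time 50.7% of all genes were called, 26.4% lower and 24.3% higher. The share of box C/D genes that fell, 41.9%, was above that of all genes, and the share that rose, 3.23%, was below it. For box H/ACA the shares were 20% and 15%, both below those of all genes. The groups did not overlap for 15 box C/D genes below and 4 above the controls and for 4 box H/ACA genes below and 4 above, against 30.4% of all genes below and 31.7% above. Median differences were -0.28 for box C/D, -0.01 for box H/ACA and 0.05 for all genes.

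Snord47, a box C/D snoRNA from the noncoding growth arrest gene Gas5, showed the largest fall among the snoRNA genes called. It read 6.96, 6.88 and 6.78 in control and 5.81, 5.73 and 6.19 in deleted cells at 24 h. The groups were well apart, with a difference of -0.96 ± 0.19 (SE), a 1.95-fold fall (adjusted p = 0.0011). Snord58b, from the ribosomal protein gene Rpl17, read 4.12, 4.55 and 4.53 against 3.35, 3.52 and 3.73. It fell by 0.86 ± 0.17 (SE; adjusted p = 0.0011) without overlap of the groups. Snord37, from the elongation factor gene Eef2, read 7.26, 6.96 and 6.89 in control cells against 5.91, 5.97 and 6.64 in deleted cells. Deleted replicate 4 lay closest to the controls but still below them, and the difference was -0.86 ± 0.21 (SE; adjusted p = 0.00324).

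Snord52, called already at 0 h, read 6.94, 6.55 and 6.21 in control and 5.80, 5.63 and 5.71 in deleted cells at 24 h. Its difference was -0.85 ± 0.21 (SE; adjusted p = 0.00359), with tight deleted arrays below spread controls. Snord49b, from the noncoding gene 2410006H16Rik, read 8.52, 8.28 and 8.31 against 7.79, 7.16 and 7.89. All deleted arrays were lower, by -0.76 ± 0.17 on average (SE; adjusted p = 0.00263). The box H/ACA gene with the largest fall was Snora33, from the ribosomal protein gene Rps12, at 8.07, 7.91 and 7.64 in control and 6.89, 7.05 and 7.12 in deleted cells. The gap between its groups was wide, and the difference was -0.85 ± 0.21 (SE; adjusted p = 0.00394). The other snoRNA genes that fell at 24 h were Snord61, Snord104, Snord42a, Snord82, Snord42b, Snord33, Snord16a, Snord49a, Snora41, Snora70 and Snora52, by 0.29 to 0.71 on the log2 scale, and the groups overlapped for Snord33 and Snord49a.

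In the other direction, 4 snoRNA genes rose in deleted cells at 24 h. Snord8 lies inside the spans of the noncoding gene Gm26590 and of the longer chromatin remodeler gene Chd8. It read 7.44, 7.23 and 7.33 in control and 8.09, 8.31 and 7.71 in deleted cells. Each deleted array was above each control array, by 0.70 ± 0.17 on average (SE; adjusted p = 0.00323). Snora30, from the chromatin remodeler gene Srcap, read 7.45, 7.12 and 7.12 against 7.84, 7.81 and 7.47. Its groups were separated by a small gap only, and the difference was 0.48 ± 0.14 (SE; adjusted p = 0.0106). Snora74a, from the noncoding gene Snhg4, differed by 0.46 ± 0.11 (SE; adjusted p = 0.00371) and Snora3, from the ribosomal protein gene Rpl27a, by 0.41 ± 0.13 (SE; adjusted p = 0.0125). Groups did not overlap for either.

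**Figure D2:**
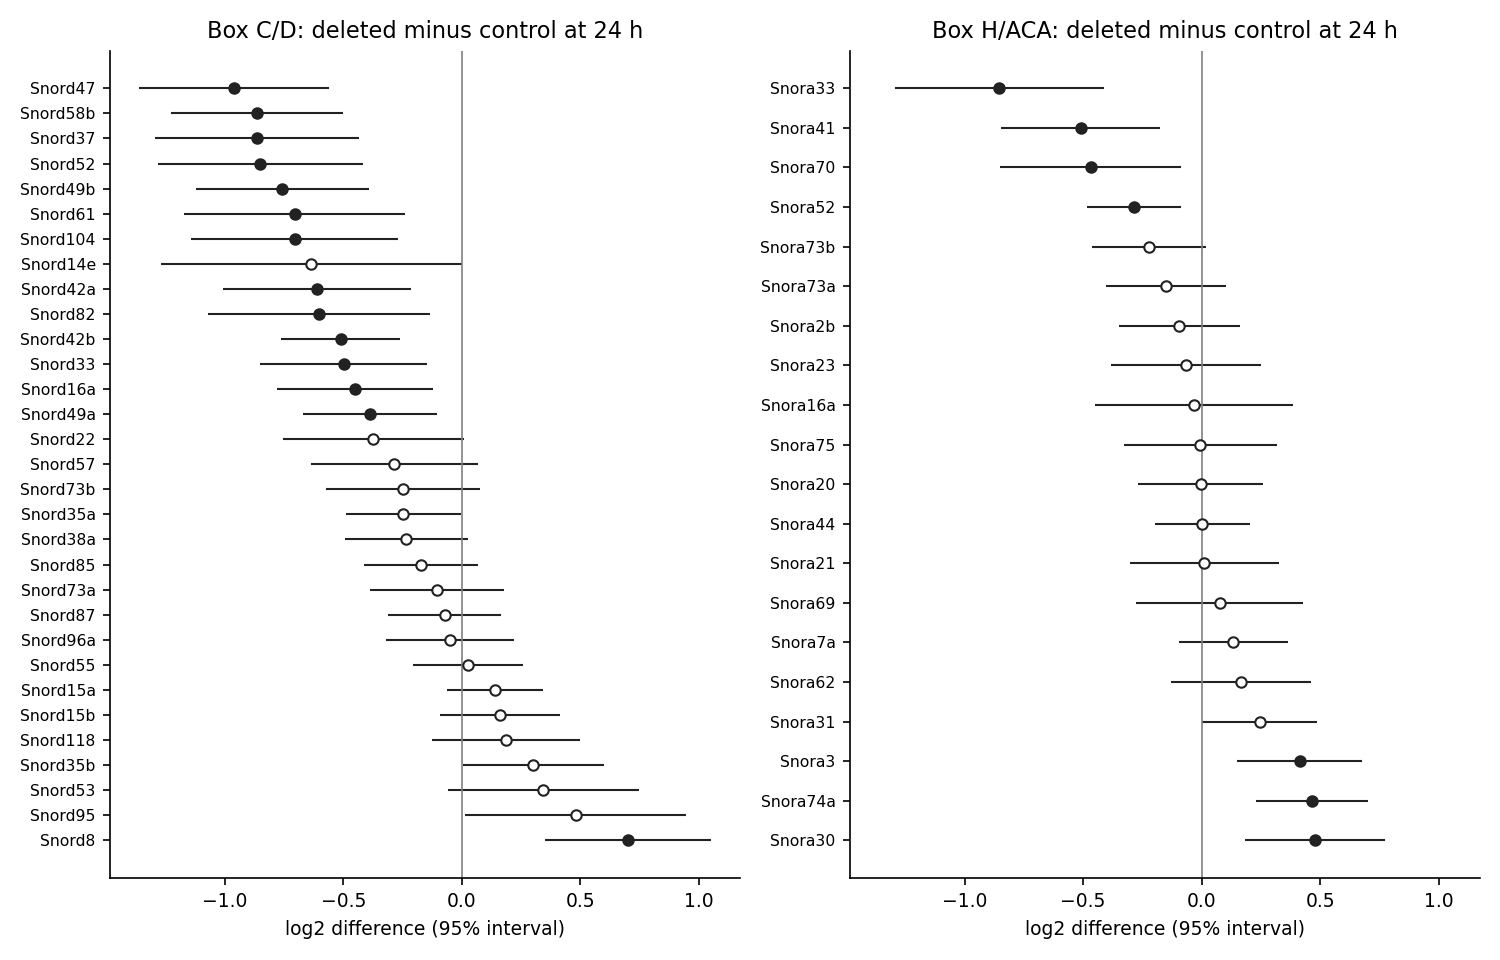
Difference in log2 expression, Cebpa-deleted minus control at 24 h, for each of the 31 box C/D genes (left) and 20 box H/ACA genes (right), with the 95% interval of the model. Filled dots are genes called in limma at an adjusted p below 0.05 and open dots are not called. Box C/D genes run from Snord47 at -0.96 to Snord8 at 0.70, and 23 of 31 lie below zero, against 11 of 20 box H/ACA genes.

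The count of snoRNA genes called at 24 h moved with the arrays and the processing. Without deleted replicate 2 at 24 h, 12 snoRNA genes were called, and leaving out any other single array kept the count within 1.5 times. Without replicates 1 and 2 the median differences were -0.27 for box C/D and -0.05 for box H/ACA. That fit leaves 1 deleted array at 24 h, which is assumed to vary like the other groups. A loss of calls in it cannot be told apart from the loss of arrays. With array range entered as a covariate, 0 snoRNA genes and 0.02% of all genes were called at 24 h, and the medians were -0.02 and -0.06. Under quantile normalization, which gives every array the same range, 19 box C/D genes were lower and 4 higher, with a median of -0.51. For box H/ACA 3 genes were lower and 3 higher, with a median of -0.05. The share of all genes called under quantile normalization is not given here, so these counts cannot be set against it. Array range and genotype at 24 h cannot be told apart in this design.

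Averaged over the 3 times, 17 snoRNA genes were lower in deleted cells and none was higher. They were 13 of 31 box C/D and 4 of 20 box H/ACA genes, against 9.75% of all genes that were lower and 7.13% that were higher. Snord14e, from the heat shock cognate gene Hspa8, had the largest average difference at -0.66 ± 0.17 (SE; adjusted p = 0.0163), yet it was not called at any single time. It read 10.86, 11.54 and 11.82 in control and 10.74, 10.04 and 10.21 in deleted cells at 0 h. The deleted arrays were all lower there, but by very unequal amounts. Snora33 averaged -0.62 ± 0.12 (SE; adjusted p = 0.00205), Snord52 -0.59 ± 0.12 (SE; adjusted p = 0.00272), Snord47 -0.50 ± 0.11 (SE; adjusted p = 0.00501), Snord82 -0.49 ± 0.13 (SE; adjusted p = 0.015) and Snord58b -0.46 ± 0.10 (SE; adjusted p = 0.00394). The count was 11 without control replicate 1 at 24 h, 4 without deleted replicates 1 and 2 at 24 h and 0 with array range as a covariate.

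SnoRNAs with known particular roles were looked at one by one. The snoRNAs in introns of Rpl13a are known in rodent cells for their part in the response to lipid overload and oxidative stress, and Snord33 and Snord35a of them were analysed here. Snord33 read 8.79, 8.90 and 8.92 in control and 8.41, 8.59 and 8.44 in deleted cells at 0 h, and 7.18, 7.11 and 7.25 against 6.60, 6.33 and 7.11 at 24 h. It was called lower at 24 h at -0.50 (adjusted p = 0.0204) but not at 0 h, although its groups were apart there. Snord35a differed by -0.39 at 0 h (adjusted p = 0.16), 0.09 at 2 h (adjusted p = 0.862) and -0.25 at 24 h (adjusted p = 0.0801). Snord22, Snord118, Snora73a and Snora73b belong to the snoRNAs known in vertebrates for a role in ribosomal RNA processing. None of these was called between genotypes at a single time. Averaged over times, Snord22 was lower by 0.39 (adjusted p = 0.0167) and Snora73b by 0.30 (adjusted p = 0.00493) on the log2 scale, whereas Snora73a differed by -0.19 (adjusted p = 0.0699) and Snord118 by -0.06 (adjusted p = 0.618).

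In control cells most snoRNA genes of both classes fell from 0 to 2 h. Of 31 box C/D genes 27 fell and 1 rose, and of 20 box H/ACA genes 12 fell and 2 rose, while 70.1% of all genes were called, 39.4% lower and 30.7% higher. The median change was -0.94 for box C/D, -0.41 for box H/ACA and -0.08 for all genes. All 2 h arrays lay below all 0 h arrays for 26 box C/D and 11 box H/ACA genes and above them for 1 and 3, against 41.9% and 32.2% of all genes. Array range narrowed over the same interval, and its part in the change was not tested. With array range as a covariate, 8 box C/D and 4 box H/ACA genes were lower and none higher, against 4.71% of all genes called, and the medians were -0.77 and -0.61. Under quantile normalization the medians were -1.02 and -0.59.

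Snord47 fell furthest. It read 8.94, 9.01 and 9.19 at 0 h and 6.03, 6.50 and 6.21 at 2 h, a fall of 6.94-fold (log2 change -2.79 ± 0.19 SE; adjusted p = 2.08e-08). No array at 2 or 24 h, of either genotype, reached its lowest reading at 0 h. Snord52 went from 7.79, 8.08 and 8.76 to 5.58, 6.08 and 5.90, with a change of -2.36 ± 0.21 (SE; adjusted p = 1.15e-07). Snord37 went from 7.35, 7.23 and 7.28 to 5.49, 5.29 and 5.10, with a change of -2.00 ± 0.21 (SE; adjusted p = 5.11e-07). Neither gene had any overlap between the times. Snord82 changed by -1.94 ± 0.22 (SE; adjusted p = 1.5e-06). The 3 genes that rose were Snora30 by 0.56 ± 0.14 (SE; adjusted p = 0.00189), Snord15b, from the ribosomal protein gene Rps3, by 0.37 ± 0.12 (SE; adjusted p = 0.0124) and Snora74a by 0.33 ± 0.11 (SE; adjusted p = 0.0151).

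In deleted cells, which share no array with the controls, 20 box C/D and 9 box H/ACA genes fell from 0 to 2 h and 1 box H/ACA gene, Snora30, rose, against 36.2% of all genes lower and 26.9% higher, 63.1% in all. The times did not overlap for 17 box C/D and 9 box H/ACA genes that lay lower at 2 h and for 1 box H/ACA gene that lay higher, against 36.2% and 25.9% of all genes. Of the 39 snoRNA genes that fell in controls, 28 (71.8%) also fell in deleted cells, and these made up 96.6% of the 29 that fell there. Over all genes these shares were 84.8% and 92.1%. Snord47 changed by -2.04 ± 0.19 (SE; adjusted p = 4.95e-07), Snord49b by -1.38 ± 0.17 (SE; adjusted p = 5.82e-06), Snord52 by -1.38 ± 0.21 (SE; adjusted p = 2.85e-05) and Snord87 by -1.24 ± 0.11 (SE; adjusted p = 3.91e-07). Snord87 lies in the noncoding gene Snhg6. The median changes were -0.71 for box C/D and -0.32 for box H/ACA.

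**Figure D3:**
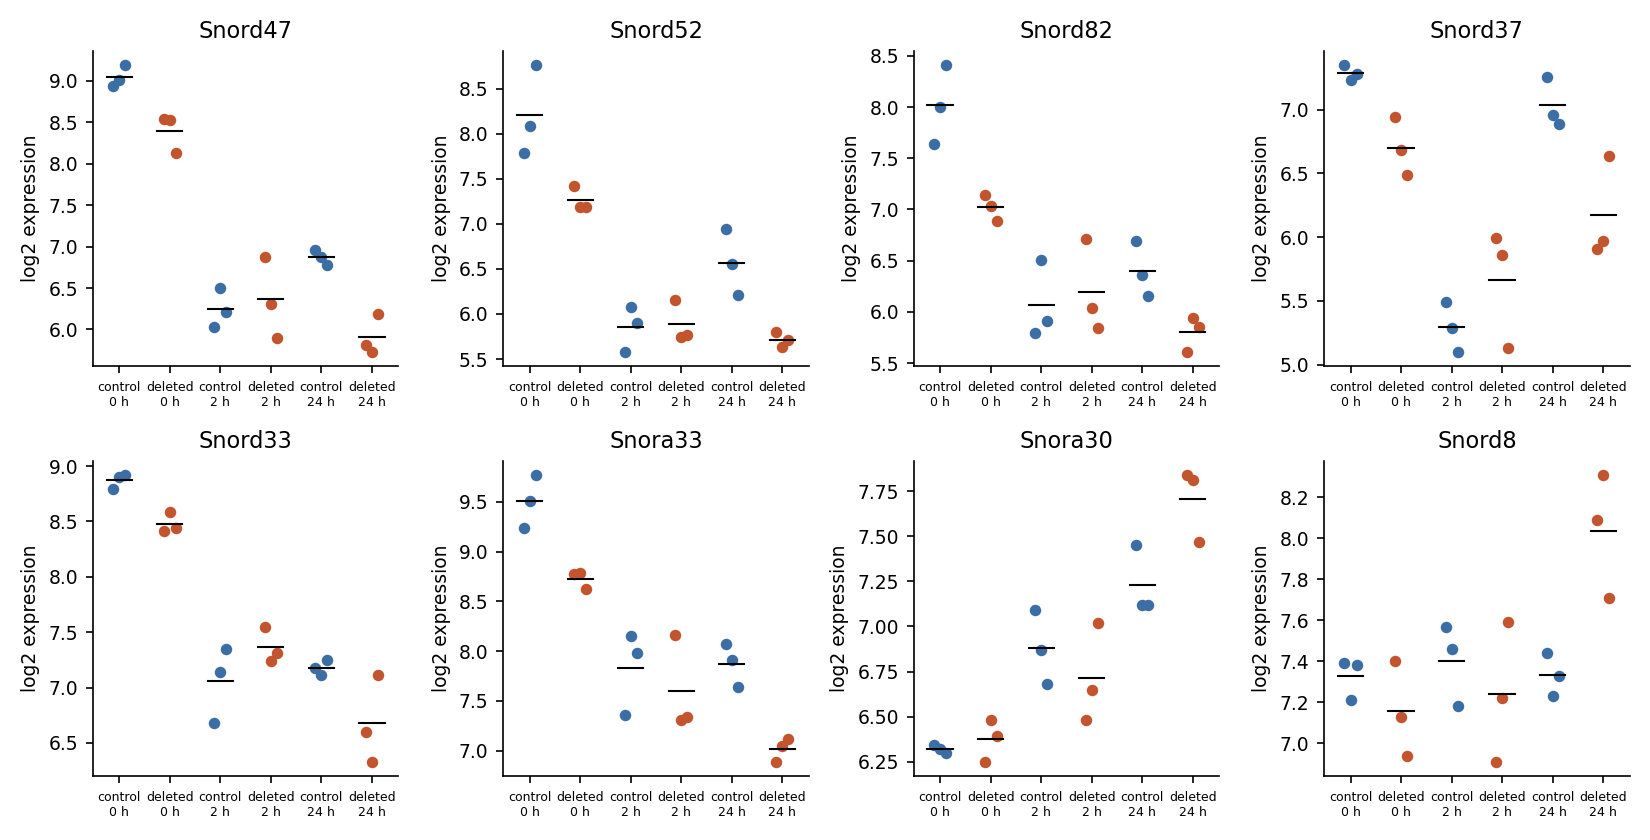
Log2 expression of 8 snoRNA genes by array (blue control, orange Cebpa-deleted; the line is the group mean, n = 3; each panel has its own axis). Snord47, Snord52 and Snord82 are highest at 0 h and have their lowest mean in deleted cells at 24 h, Snord37 is low in control cells only at 2 h, and Snora30 and Snord8 are highest in deleted cells at 24 h.

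Between 2 and 24 h some snoRNA genes rose again in control cells. Of 31 box C/D genes 11 rose and of 20 box H/ACA genes 4 rose, and none fell, while 7.97% of all genes rose and 4.46% fell, 12.4% in all. The times did not overlap for 15 box C/D and 6 box H/ACA genes that lay higher at 24 h and for 2 and 1 that lay lower, against 15.5% and 23.2% of all genes. The median change was 0.28 for box C/D and 0.17 for box H/ACA, against -0.06 for all genes. This comparison holds control arrays only, whose ranges were 2.13 to 2.38 at 2 h and 2.44 to 2.52 at 24 h. With array range as a covariate 5 box C/D and 4 box H/ACA genes rose and 1 box H/ACA gene fell. Under quantile normalization 12 and 5 rose and 1 box C/D gene fell. The shares of all genes above belong to the main fit, and those under these settings are not given here. The count of 15 was sensitive to single arrays: it was 7 without control replicate 1 and 9 without control replicate 3 at 2 h, and 6, 8 and 8 without control replicates 1, 2 and 3 at 24 h. It was 5 when genes outside the upper 60 percent in mean level were left untested.

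Snord37 rose most, from 5.49, 5.29 and 5.10 at 2 h to 7.26, 6.96 and 6.89 at 24 h in control cells. This was a 3.35-fold rise (log2 change 1.74 ± 0.21 SE; adjusted p = 2.49e-05) that brought it near its readings of 7.23 to 7.35 at 0 h. Snora75, from an intron of Ncl, went from 6.23, 6.79 and 6.09 to 7.46, 7.13 and 7.20, by 0.89 ± 0.15 (SE; adjusted p = 0.000872). Every 24 h array was above every 2 h array for both genes. Snora23, from the importin gene Ipo7, rose by 0.74 ± 0.15 (SE; adjusted p = 0.00321) and Snord52 by 0.71 ± 0.21 (SE; adjusted p = 0.0296).

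In Cebpa-deleted cells, box H/ACA genes mostly account for the rises from 2 to 24 h. Of 20 box H/ACA genes 7 rose and 2 fell, whereas of 31 box C/D genes 2 rose and 3 fell, against 11.8% of all genes that rose and 19.6% that fell, 31.4% in all. The times did not overlap for 8 box H/ACA and 2 box C/D genes higher at 24 h and for 2 of each class lower, against 15.5% and 20.3% of all genes. Snora30 went from 6.48, 6.65 and 7.02 to 7.84, 7.81 and 7.47, by 0.99 ± 0.14 (SE; adjusted p = 0.00024). Snord8 went from 6.91, 7.22 and 7.59 to 8.09, 8.31 and 7.71, by 0.79 ± 0.17 (SE; adjusted p = 0.00256). Both had no overlap between times. Snord53, from Wdr43, whose protein acts in early ribosome assembly, rose by 0.73 ± 0.19 (SE; adjusted p = 0.00938) and Snora20, from the chaperonin gene Tcp1, by 0.68 ± 0.13 (SE; adjusted p = 0.00116). Falls were seen in Snord33 (-0.69 ± 0.17 SE; adjusted p = 0.00619), Snora33 (-0.58 ± 0.21 SE; adjusted p = 0.043), Snord49b (-0.51 ± 0.17 SE; adjusted p = 0.0329), Snord104 (-0.61 ± 0.21 SE; adjusted p = 0.0341) and Snora52 (-0.26 ± 0.09 SE; adjusted p = 0.0443), with overlap between the times for Snord104. The count of 14 was 8 without deleted replicate 2 at 2 h, without deleted replicate 1 at 24 h or without deleted replicate 2 at 24 h. It was 0 without both of the latter and 0 with array range as a covariate.

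The genes that rose from 2 to 24 h were shared in part. Snora20, Snora21, Snora23, Snora75 and Snord53 rose in both genotypes, 33.3% of the 15 that rose in controls and 55.6% of the 9 that rose in deleted cells. Over all genes these shares were 15.5% and 10.5%. Of these 5, 4 are box H/ACA genes. The 11 box C/D genes that rose in controls included Snord37, Snord47, Snord52 and Snord58b, none of which was called in deleted cells over this interval, where they differed by 0.51, -0.45, -0.17 and -0.18.

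**Figure D4:**
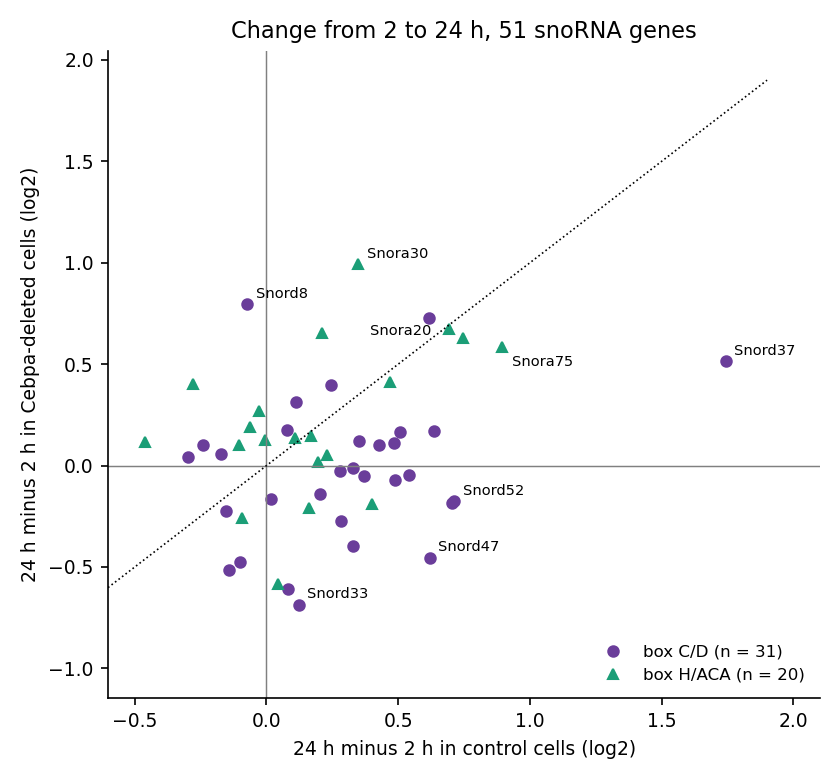
Change in log2 expression from 2 to 24 h in control cells (horizontal axis) and in Cebpa-deleted cells (vertical axis) for each of the 51 snoRNA genes, circles box C/D and triangles box H/ACA, where the axes share no arrays and the dotted line marks equal change. Snord37 lies far to the right at 1.74 in control cells, Snora30 and Snord8 lie highest at 0.99 and 0.79 in deleted cells, and Snord47 and Snord52 lie right of zero and below it.

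The difference between genotypes was tested for change with time. From 2 to 24 h the genotype difference moved down for 6 box C/D genes and up for 1 box C/D and 2 box H/ACA genes, while for all genes 16.5% moved down and 14.3% up. Snord37 had the largest shift at -1.23 ± 0.29 (SE; adjusted p = 0.00894), where it rose by 1.74 in controls and differed by 0.51 in deleted cells (adjusted p = 0.0629). It was followed by Snord47 at -1.07 ± 0.27 (SE; adjusted p = 0.0114), Snord52 at -0.89 ± 0.29 (SE; adjusted p = 0.0315) and Snord58b at -0.89 ± 0.24 (SE; adjusted p = 0.0162). The upward shifts were Snord8 at 0.87 ± 0.24 (SE; adjusted p = 0.0156), Snora74a at 0.68 ± 0.16 (SE; adjusted p = 0.00878) and Snora30 at 0.64 ± 0.20 (SE; adjusted p = 0.0248). The count of 9 ranged from 4 without deleted replicate 2 at 24 h to 15 without deleted replicate 4 at 2 h. Other arrays that moved it were control replicate 1 and deleted replicate 2 at 2 h, with 5 genes left in each case, and deleted replicate 4 at 24 h, with 14. It was 0 without deleted replicates 1 and 2 at 24 h and 20 under quantile normalization.

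Compared with 0 h, the genotype difference at 24 h moved up for 4 genes, Snord8, Snora31, Snord35b and Snora74a, and down for 1, Snord49b, against 5.46% of all genes up and 8.88% down. Snora31 was below controls at 0 h and above them at 24 h, when it read 7.02, 6.98 and 6.84 in control and 7.04, 7.36 and 7.17 in deleted cells. Its shift was 0.75 ± 0.16 (SE; adjusted p = 0.0156), although the 24 h difference of 0.24 alone was not called. Snord49b, level between genotypes at 0 h, shifted by -0.76 ± 0.25 (SE; adjusted p = 0.0477). Single arrays moved the count of 5. Leaving out control replicate 1, 2 or 3 at 0 h gave 3, 2 and 3 genes, and the counts were 1 and 2 without deleted replicates 2 and 3 at 0 h, 3, 1 and 2 without control replicates 1, 2 and 3 at 24 h, and 1, 0 and 8 without deleted replicates 1, 2 and 4 at 24 h.

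Over the whole interval from 0 to 24 h, 21 box C/D genes fell and none rose in controls, and 20 fell and 3 rose in deleted cells. Box H/ACA genes gave 9 falls and 2 rises in controls and 9 falls and 5 rises in deleted cells. Of all genes 34.6% fell and 25.3% rose in controls, and 41.5% fell and 36% rose in deleted cells, which makes 59.9% and 77.6% called. In controls the times did not overlap for 24 box C/D and 10 box H/ACA genes lower at 24 h and for 1 and 2 higher, against 39.8% and 29.1% of all genes. In deleted cells these counts were 19 and 7 lower and 2 and 4 higher, against 42.3% and 36.1%. The largest falls in controls were Snord47 (-2.18 ± 0.19 SE), Snord14e (-1.90 ± 0.30 SE), Snord33 (-1.69 ± 0.17 SE) and Snord52 (-1.64 ± 0.21 SE). In deleted cells they were Snord47 (-2.49 ± 0.19 SE), Snord49b (-1.90 ± 0.17 SE), Snord33 (-1.80 ± 0.17 SE) and Snora33 (-1.71 ± 0.21 SE), and each of these 8 changes had a limma adjusted p of at most 4.88e-05. Snora30 rose by 0.91 ± 0.14 (SE) in controls and by 1.34 ± 0.14 (SE) in deleted cells, and Snord95, from the ribosomal scaffold gene Rack1, by 0.87 ± 0.22 (SE; adjusted p = 0.00171) in deleted cells. The host Rack1 was not analysed here. With array range as a covariate the count in deleted cells went from 37 to 0 and that in controls from 32 to 14, and Snord95 turned to -0.78 (adjusted p = 0.528) in deleted cells.

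The classes were set side by side by their changes, since the levels of different probes cannot be compared. Each class mean was taken as its change from the mean of the control arrays at 0 h, and the change of box H/ACA was subtracted from that of box C/D. The result was -0.09 to -0.03 on deleted arrays at 0 h, -0.56 to -0.41 on control and -0.50 to -0.26 on deleted arrays at 2 h. At 24 h it was -0.43 to -0.36 on control and -0.72 to -0.55 on deleted arrays, which did not overlap. These are descriptions, with no test. Array range went along with this contrast. Among arrays at 2 and 24 h, the widest, deleted replicate 2 at 2 h (range 2.55), gave -0.26. The narrowest, deleted replicate 2 at 24 h (range 1.82), gave -0.72. Control replicate 1 at 2 h and deleted replicate 4 at 24 h, both with a range of 2.13, gave -0.56 and -0.55. Box C/D genes are also the shorter class, and the parts of array range and of length in the contrast were not tested.

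Hosts and their snoRNAs were compared where both were measured, for 27 snoRNA genes and 23 hosts. From 0 to 2 h in controls all 21 of these snoRNA genes that fell had hosts that fell too. As 22 of the 23 hosts (95.7%) fell, against 39.4% of all genes, that match was nearly fixed and is read no further. In controls the median was -0.90 for the snoRNA genes and -0.64 for the hosts, and 16 of the 27 snoRNA genes lay below their host. Deleted cells showed the opposite order over this interval. There the median was -0.42 for the snoRNA genes and -0.61 for the hosts, and 10 of the 27 lay below their host. In controls the classes differed in their medians but little in the counts below the host, with no test. The box C/D median was -0.96 against -0.64 for its hosts, with 9 of 14 genes below the host. For box H/ACA the median was -0.44 against -0.63, with 7 of 13 below. Size differed: Snord47 changed by -2.79 and Gas5 by -0.72, Snord37 by -2.00 and Eef2 by -0.35, and Snord82 by -1.94 and Ncl by -0.52. Snora30 rose by 0.56 while Srcap fell by 0.63, and Snord15b rose by 0.37 while Rps3 fell by 0.94 on the log2 scale.

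From 2 to 24 h in controls 10 of the 27 snoRNA genes rose, and the host rose for 2 of them and was not called for 8. In all 4 of 23 hosts (17.4%) rose, against 7.97% of all genes. Those 2 were Snord47 with Gas5 (0.42; adjusted p = 0.00591) and Snora75 with Ncl (0.34; adjusted p = 0.0403). Snord37 rose by 1.74 where Eef2 differed by 0.12 (adjusted p = 0.365). At 24 h 11 of the 27 were lower in deleted than in control cells, and the host was lower for 4 of them and not called for 7. In all 7 of 23 hosts (30.4%) were lower, near the 26.4% of all genes, and Tcp1, Ipo7 and Rpsa were among them while their snoRNA genes Snora20, Snora23 and Snora62 were not called. The 4 pairs were Snord37 with Eef2, Snord61 with Rbmx, Snora41 with Eef1b2 and Snora70 with Rpl10. Rbmx, which encodes an RNA-binding protein of splicing, was the exception in size, at -1.50 against -0.71 for Snord61. Gas5 differed by -0.21 (adjusted p = 0.062), Rps12 by -0.14 (adjusted p = 0.233) and Ncl by -0.18 (adjusted p = 0.156) where Snord47, Snora33 and Snord82 fell. SnoRNAs of 1 host also parted: Snord82 fell at 24 h and Snora75, from the same gene, differed by -0.01 (adjusted p = 0.979). Whether a snoRNA feature also reads intron RNA of its host was not tested.

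**Figure D5:**
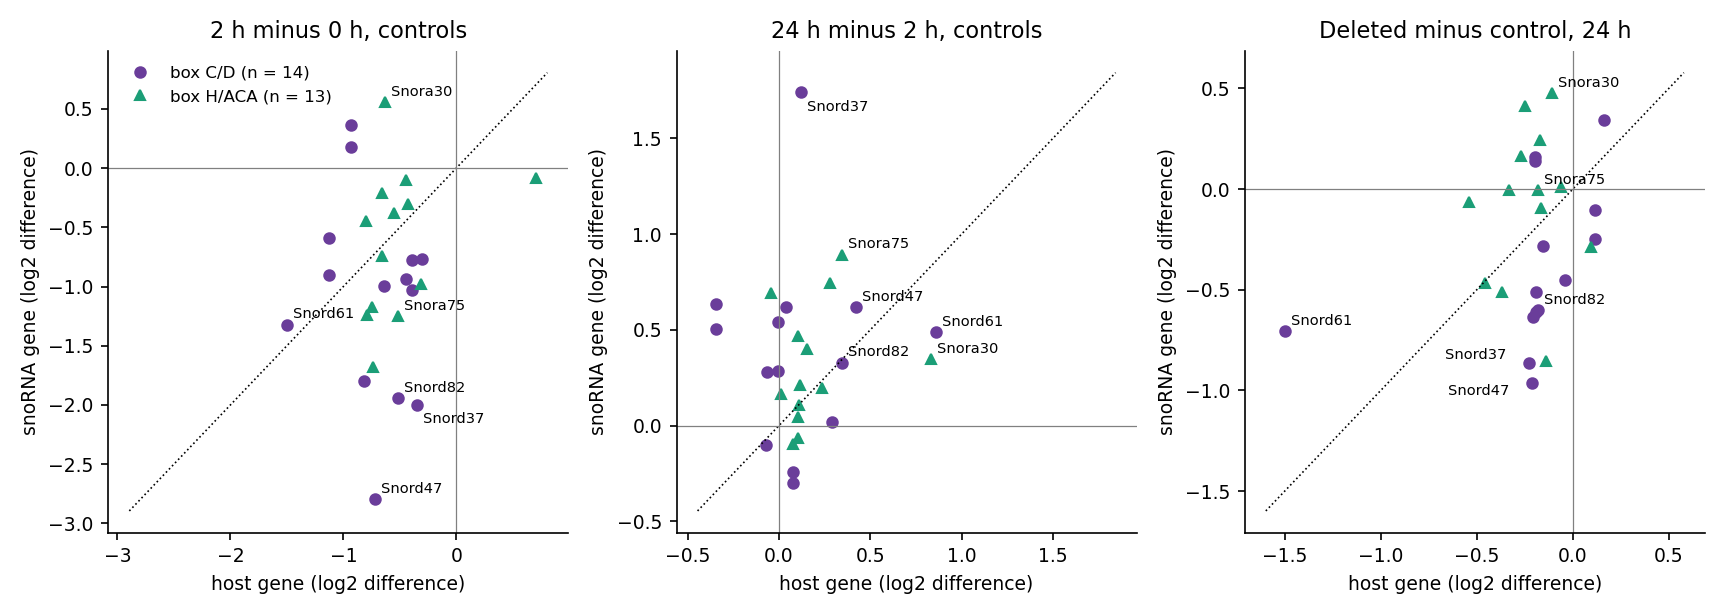
Log2 difference of each snoRNA gene (vertical axis) against that of its host (horizontal axis) for the 27 genes with a measured host (14 box C/D circles, 13 box H/ACA triangles), for 0 to 2 h in controls, 2 to 24 h in controls and deleted minus control at 24 h; the dotted line marks equal difference. Snord47, Snord37 and Snord82 lie far below the line from 0 to 2 h, Snord37 lies far above it from 2 to 24 h, and Snord61 lies above it at 24 h because Rbmx differed by -1.50.

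Genes for the proteins that bind and assemble snoRNAs were compared between genotypes. In each class 1 of 4 core protein genes (25%) was lower at 24 h, near the 26.4% of all genes. At 0 and 2 h only 0.858% and 1.4% of all genes were called, so lists this short say little there. Of 4 box C/D core proteins (Fbl, Nop56, Nop58 and Snu13), none was called at 0 or 2 h and Snu13 was lower at 24 h at -0.23 (adjusted p = 0.043). That call was made in 12 of 18 fits with 1 array left out, and Snu13 turned to 0.12 (adjusted p = 0.293) after quantile normalization. Fbl, which encodes the methyltransferase fibrillarin, differed by -0.01 at 24 h (adjusted p = 0.943), but by 0.24 (adjusted p = 0.0395) after quantile normalization. Of 4 box H/ACA core proteins (Dkc1, Gar1, Nhp2 and Nop10), none was called at 0 or 2 h and Nop10 was lower at 24 h at -0.63 (adjusted p = 0.00501), but differed by -0.33 (adjusted p = 0.0668) after quantile normalization and by 0.22 (adjusted p = 0.809) with array range as a covariate. Dkc1, which encodes dyskerin, differed by -0.07 between genotypes at 24 h (adjusted p = 0.589). It fell in controls by 0.80 from 0 to 2 h and by a further 0.45 from 2 to 24 h (adjusted p = 0.0133). Among assembly and maturation factors 1 of 14 (7.14%) was lower at 24 h, among trimming and decay factors 4 of 7 (57.1%), and among RNA polymerase I and nucleolar genes 5 of 12 (41.7%), where 26.4% of all genes were lower. None was higher in any of these lists, where 24.3% of all genes were. Of 61 ribosomal protein genes 17 (27.9%) were lower, a share near the 26.4% of all genes, and 3 (4.92%) were higher, against 24.3% of all genes, with a median of -0.19. Dis3, an exonuclease subunit of the RNA exosome, was lower by 0.28 (adjusted p = 0.0109) and Npm1, which encodes nucleophosmin, by 0.30 (adjusted p = 0.0436) on the log2 scale.

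Values for other short RNA genes are given for comparison. Of 291 microRNA genes none was higher and 4 (1.37%) were lower in deleted cells at 0 h, against 0.677% and 0.181% of all genes. None was called at 2 h, against 1.4% of all genes. At 24 h 129 (44.3%) were higher and 7 (2.41%) lower, against 24.3% and 26.4% of all genes, with a median difference of 0.28. From 0 to 2 h in controls 176 microRNA genes (60.5%) rose and 34 (11.7%) fell, against 30.7% and 39.4% of all genes, with a median change of 0.40. From 2 to 24 h in controls 8 (2.75%) rose and 14 (4.81%) fell, against 7.97% and 4.46% of all genes. The mean level of the microRNA features was low, 5.07 to 5.80 on every array. Of 3 small Cajal body RNA genes, which guide modification of spliceosomal RNA, 1 was higher and none lower at 24 h. The array range moved with these differences too, and its part in them was not tested.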

How the data were processed

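Total RNA of isolated type II cells was biotin labelled and hybridised by the authors to 18 arrays. Their deposited log2 values come from RMA, per the submitters' processing notes. Its version, and which arrays were normalized in 1 run, are not given in the sources used here. Of 35557 features, 21789 had 1 symbol, 1621 several and 12147 none. Features with 1 symbol were kept, and the feature with the highest mean stood for each of 19938 genes, without a filter on low values; 33 of the 51 snoRNA genes rank in the upper 60 percent. The number of arrays limits the precision.

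All comparisons came from 1 model per gene with 6 group means over 18 arrays (limma 3.58.1, lmFit and eBayes, R 4.3.3), two-sided, with Benjamini-Hochberg adjustment over the whole array and a threshold of 0.05. SEs are those of the moderated model. Scripts were tested on simulated data. Hosts were the shortest gene whose RefSeq span contained the snoRNA; strand was not compared. Pyrimidine runs were searched on the strand of the gene at each annotated start. Figures used Python 3.11.15 and matplotlib 3.10.9.

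The snoRNA genes, the lists and the tests were chosen with earlier results of these data known. Named genes were the 6 largest rises and 6 largest falls in each genotype contrast and the 4 and 4 in each time or interaction contrast among called snoRNA genes whose groups did not overlap (not asked of averages and interactions), the 3 of smallest p in each direction where fewer than 3 were called, the Rpl13a and rRNA-processing snoRNAs, the core proteins, Cebpa and hosts of named members. Other genes were named after their values were seen. Snord32a, Snord34, Snord3a, Snord13, Snord14 and the imprinted snoRNAs of that rule were not analysed here. The rule matched exact symbols, so Snord14e was not counted among the rRNA-processing snoRNAs. Snord47, Snord8 and Snord87 lie inside 2 genes each, of which the shorter was taken. Replicate numbers shared between genotypes were checked as pairs: correlations of same-numbered residuals ran from -0.24 to 0.06, so they were not treated as pairs. Other settings were each of 18 arrays left out, quantile normalization, array range as a covariate, a replicate block, the mean of all features, the upper 60 percent of genes, and eBayes with trend and robust. Median centring and leaving out 2 narrow arrays were chosen after seeing the data.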

Additional observations from a re-analysis of the deposited data

Results flagged for a closer look

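The genotype difference changed between times for 12 snoRNA genes, 2 of them in both comparisons, by limma's interaction term (adjusted p below 0.05 over all genes). From 2 to 24 h it moved down for Snord37 by -1.23, Snord47 by -1.07, Snord52 by -0.89, Snord58b by -0.89, Snord33 by -0.81 and Snord42b by -0.59, all box C/D genes. It moved up for Snord8 by 0.87, Snora74a by 0.68 and Snora30 by 0.64. Of the 51 snoRNA genes 11.8% thus moved down and 5.88% up, both below the 16.5% and 14.3% of all genes. From 0 to 24 h the genotype difference moved up for Snord8 by 0.87, Snora31 by 0.75, Snord35b by 0.71 and Snora74a by 0.58, and down for Snord49b by -0.76. These were 7.84% of the snoRNA genes up and 1.96% down, against 5.46% and 8.88% of all genes. With array range as a covariate none of these snoRNA shifts was called, and Snord8 turned to -0.12 for the shift from 2 to 24 h.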

How the results depend on the processing

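Counts of called snoRNA genes over leave-one-out fits were 0 to 8 for deleted minus control at 0 h (3 with all arrays), 0 to 1 at 2 h (0), 12 to 23 at 24 h (21) and 11 to 24 for the average (17). For 0 to 2 h they were 37 to 43 in controls (42) and 28 to 36 in deleted cells (30), for 0 to 24 h 29 to 34 (32) and 31 to 37 (37), and for 2 to 24 h 6 to 16 (15) and 8 to 18 (14). For the shift in genotype difference they were 4 to 15 from 2 to 24 h (9) and 0 to 8 from 0 to 24 h (5). With array range as a covariate the counts were 6 at 0 h, 2 at 2 h, 0 at 24 h, 0 for the average, 12 and 6 for 0 to 2 h in controls and deleted cells, 14 and 0 for 0 to 24 h, 0 for 2 to 24 h in deleted cells, and 0 and 0 for the shifts. Without deleted replicates 1 and 2 at 24 h they were 0 at 0 h, 0 at 24 h, 4 for the average, 0 for 2 to 24 h in deleted cells and 0 for both shifts. Quantile normalization gave 0 at 0 h, and 20 and 3 for the shifts from 2 to 24 h and 0 to 24 h. The upper 60 percent of genes gave 26 for 0 to 2 h and 5 for 2 to 24 h in controls, with fewer genes tested. The replicate block, in which numbers did not pair arrays, gave 0 at 0 h, 9 for 2 to 24 h in deleted cells and 1 for the shift from 0 to 24 h. Other counts stayed within 1.5 times. Shares of all genes in these settings are not given beside the counts, which describe only how the snoRNA calls moved. Signs turned with array range as a covariate at 24 h between genotypes for Snord8 (-0.12), Snora30 (-0.051), Snord33 (0.29), Nop10 (0.22) and Eef2 (0.047), for 0 to 2 h for Snora30 (-0.21 in controls, -0.28 in deleted cells) and Snora74a (-0.20), in deleted cells for 0 to 24 h for Snord8 (-0.72) and Snord95 (-0.78) and for 2 to 24 h for Snora33 (0.033) and Snord49b (0.054), and for the shift of Snord8 (-0.12). Under quantile normalization they turned at 24 h for Fbl (0.24), Snu13 (0.12) and Eef2 (0.040). The cause was not tested. Of named values, median centring made 0 calls weaker and 12 stronger. Array range differs mostly between groups, so that covariate takes up group differences as well.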
